A study of Mus musculus with 6 samples.

Results

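Spermatids are the haploid germ cells that turn into sperm, and 40 genes known for their use in these cells were followed in RNA sequencing of primary mouse Sertoli cell cultures. The genes were chosen by name, as protamines, transition proteins and parts of the acrosome and flagellum together with kinases and other spermatid products. Of the 40 symbols, 38 matched a gene with values, out of 29275 genes in the files. The other two, Spaca7 and Ldhal6b, were not analysed here. Symbols were matched through Ensembl identifiers, and Spag6 refers to the gene of that name on chromosome 2 in the reference used, not to its relative Spag6l.

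Total RNA came from 6 cultures of primary Sertoli cells: 3 numbered biological replicates from wild-type (WT) mice, labelled untreated, and 3 from mice labelled Arhgef15 cKO, a conditional deletion of the exchange factor gene Arhgef15 in Sertoli cells. The culture medium of all 6 held fetal bovine serum, antibiotics and EGF. The sources used here give no Cre driver, deleted exons or mouse ages, and they do not say whether 1 animal or several stood behind a replicate, so a p-value speaks only of variation among these 6 libraries, which may be technical. The comparison asked which transcripts differ when Arhgef15 is deleted.

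Sertoli cells surround and feed germ cells, and they engulf the residual cytoplasm that spermatids shed and the germ cells that die. Spermatids stop transcription as their nucleus condenses, and many of their messages are made earlier, stored and translated late. The source of the spermatid mRNA in these cultures was not tested. In bulk RNA, fewer cells of a type and less RNA per cell cannot be told apart.

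Values are FPKM, fragments scaled to exon length and library depth, which may be compared between genes, and the steps between values gave 16790000 to 20320000 fragments per library. WT replicate 3 stood apart from the other WT libraries: its Pearson correlation of log2(FPKM + 1) across genes was 0.860 and 0.898 with WT replicates 1 and 2, but 0.947, 0.929 and 0.921 with the 3 cKO libraries. The Sertoli transcription factor genes Sox9 and Wt1 were present in all libraries, Sox9 at 5.10 to 35.6 FPKM. Both were lowest in WT replicates 1 and 2. Sox9 was at 5.97 and 5.10 FPKM there and at least 20.2 FPKM elsewhere. Wt1 was at 2.75 and 4.17 FPKM there and at least 14.9 FPKM elsewhere. A list of 20 Sertoli genes had a mean log2(FPKM + 1) of 3.04 and 2.89 there, against 3.58 to 4.08 elsewhere. Single genes of it differed: Inhbb was highest there, at 65.7 and 85.4 FPKM, against at most 32.6 FPKM elsewhere. Arhgef15 itself was listed at 0.0237 to 0.349 FPKM in WT and 0.322 to 0.501 FPKM in cKO libraries, so the whole-gene level did not set the cKO label apart, and which exons the deletion removes could not be read from it. WT replicate 3 and cKO replicate 1 also held spermatocyte transcripts that the other 4 libraries nearly lacked, as described further on.

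Spermatid transcripts were present in every culture, and libraries of 1 genotype label differed widely in their level. Summed over the 38 genes, they came to 253.0, 110.8 and 292.4 FPKM in WT replicates 1, 2 and 3. For cKO replicates 1, 2 and 3 the sums were 492.9, 89.6 and 34.2 FPKM. The highest and the lowest library thus both carried the cKO label. The sums made up 0.0361% to 0.0996% of all FPKM in the WT libraries and 0.161%, 0.0299% and 0.0117% in cKO replicates 1, 2 and 3. The highest value of a gene was in cKO replicate 1 for 23 of the 38 genes, and the lowest was in cKO replicate 3 for 27, with ties at the lowest value counted in each library. Within the cKO label, replicate 1 lay above replicates 2 and 3 for 35 of 38 genes. The shares of all genes with these orders were not counted, so the counts describe these 38 genes only.

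**Figure D1:**
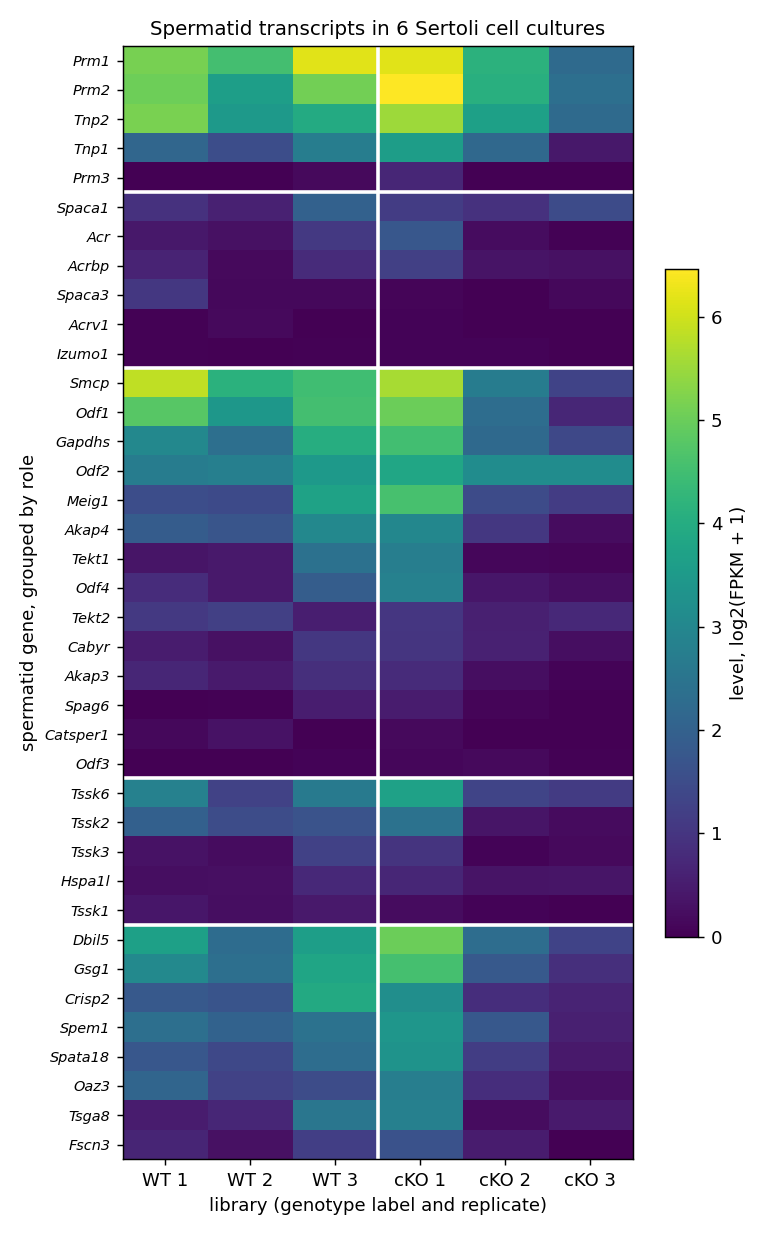
Level of each of the 38 spermatid genes (rows, grouped by role, white lines between groups) in the 6 libraries (columns), as log2(FPKM + 1) by colour. A vertical white line parts WT from cKO. 23 of the 38 genes are highest in cKO 1 and 27 are lowest in cKO 3, and Odf2 is the one row of nearly even colour at a raised level. The same shares over all genes were not counted.

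Over the mean of the 6 libraries Prm1 and Prm2 were the most abundant of the 38, although Smcp was above both in WT replicate 1. Prm1 encodes protamine 1, the arginine-rich protein that replaces histones in sperm, and the WT replicates 1, 2 and 3 had 34.0, 22.2 and 71.1 FPKM of it, the cKO replicates in the same order 71.1, 16.8 and 3.75 FPKM. WT replicate 3 and cKO replicate 1 shared the top level, and cKO replicate 3 lay 19.0-fold below cKO replicate 1. Those end points rested on 787 fragments in cKO replicate 1 (exact Poisson 95% interval 733.0 to 844.0) and 43 in cKO replicate 3 (31.1 to 57.9), intervals that cover counting error only. Its mean was 42.4 ± 25.5 FPKM (SD, n = 3) under the WT label and 30.6 ± 35.7 FPKM (SD, n = 3) under the cKO label. On the log2(FPKM + 1) scale the difference was -1.09 with an SE of 0.91 (limma, Benjamini-Hochberg adjusted p = 0.866).

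Prm2, the gene of the second protamine, had 31.9, 11.4 and 32.8 FPKM in the WT and 87.5, 15.9 and 4.12 FPKM in the cKO libraries. Here cKO replicate 1 was above every WT library and cKO replicate 3 below every one. Its mean was higher in cKO libraries, 35.8 ± 45.1 against 25.4 ± 12.1 FPKM, while the difference of log values was -0.28 (SE 0.95, limma adjusted p = 0.966). Transition proteins stand on the DNA between histones and protamines. Of these, Tnp2 was listed at 34.7, 10.2 and 14.6 FPKM in WT and at 44.7, 11.7 and 3.68 FPKM in cKO libraries, a log2 difference of -0.40 (SE 0.80, limma adjusted p = 0.942). Tnp1 was lower, with 3.42, 1.88 and 5.63 FPKM in WT and 11.2, 3.54 and 0.342 FPKM in cKO libraries, the last value resting on 3 fragments. Prm3, named for its place in the protamine gene cluster, was listed at 0 in 4 libraries, at 0.120 FPKM in WT replicate 3 and at 0.629 FPKM in cKO replicate 1. Counts of 0 allow up to 0.364 to 0.436 FPKM for this short gene (3 fragments).

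The ratio between the protamine messages was not the same in all libraries. Prm1 was 2.17-fold the level of Prm2 in WT replicate 3, 1.94-fold in WT replicate 2 and 1.07-fold in WT replicate 1. In cKO replicates 1, 2 and 3 the ratio was 0.813, 1.05 and 0.910. Prm1 against Tnp2 spread further, from 0.981 in WT replicate 1 to 4.88 in WT replicate 3.

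Many spermatid genes are switched on after meiosis, and promoters of 6 of them are shown here for the letters that 5 share and 1 lacks. CREM, a transcription factor of round spermatids, binds the cAMP response element TGACGTCA and variants of it. The 250 bases before each RefSeq gene start were searched for TGANNTCA, which reads the same on both strands as a pattern and includes TGACGTCA. The pattern was chosen after some of the sequences had been seen. It occurred in 14 of 33 spermatid genes with an entry used, 42.4%, against 13.5% of all 27025 genes with one. A gene was counted if any of its windows held a match. A further 5 spermatid genes had no entry used. Windows on 1 chromosome were left out for the spermatid genes but not for all genes. Each of the 14 genes with a match had one within 100 bases of a start. The share of all genes with so close a match was not counted. The strict TGACGTCA was in 1 of the 33, Izumo1, against 1.77% of all genes. Such a match describes letters and does not show binding. The sequences below are the 150 bases before the start, 5′ to 3′ on the gene's strand, from RefSeq on GRCm38.p6, with matches in capitals. They cover chr16:10796824-10796973 (minus strand) for Prm1, chr1:73015900-73016049 (minus strand) for Tnp1, chr16:17898487-17898636 (plus strand) for Tssk2, chrX:7067365-7067514 (plus strand) for Akap4, chr6:135254337-135254486 (minus strand) for Gsg1 and chr16:10792106-10792255 (minus strand) for Prm2.
Prm1: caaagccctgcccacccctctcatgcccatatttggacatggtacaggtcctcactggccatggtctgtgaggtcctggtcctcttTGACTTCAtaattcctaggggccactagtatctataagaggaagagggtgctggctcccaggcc
Tnp1: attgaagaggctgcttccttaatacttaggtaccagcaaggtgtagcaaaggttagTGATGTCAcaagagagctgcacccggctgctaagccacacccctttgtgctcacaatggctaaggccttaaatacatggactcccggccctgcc
Tssk2: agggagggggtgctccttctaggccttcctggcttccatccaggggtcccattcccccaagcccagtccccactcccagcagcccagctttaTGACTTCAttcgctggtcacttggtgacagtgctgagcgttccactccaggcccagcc
Akap4: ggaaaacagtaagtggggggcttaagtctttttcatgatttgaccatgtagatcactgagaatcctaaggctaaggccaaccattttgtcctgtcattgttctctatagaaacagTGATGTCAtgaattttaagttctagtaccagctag
Gsg1: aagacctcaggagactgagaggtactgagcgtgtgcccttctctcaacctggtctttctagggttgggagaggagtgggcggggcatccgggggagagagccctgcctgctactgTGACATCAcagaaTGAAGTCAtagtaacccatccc
Prm2: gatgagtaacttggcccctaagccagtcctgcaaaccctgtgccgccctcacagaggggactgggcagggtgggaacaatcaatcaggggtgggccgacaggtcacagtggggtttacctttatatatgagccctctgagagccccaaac
The match TGACTTCA stood 64 bases before the start in Prm1 and 58 bases in Tssk2, counted from its first base. TGATGTCA stood 94 bases before the start in Tnp1 and 35 bases in Akap4. Gsg1 held both TGACATCA and TGAAGTCA, at 35 and 22 bases. Prm2 held no match in its window.

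The flagellum gave the second large share. Smcp, the cysteine-rich protein of the sheath around sperm mitochondria, was at 56.7, 16.5 and 21.3 FPKM in WT and at 48.0, 5.61 and 1.47 FPKM in cKO libraries. WT replicate 1 was its highest library, and cKO replicates 2 and 3 lay below all WT values. Odf1 encodes a main protein of the outer dense fibres that stiffen the tail, and had 26.6, 9.70 and 22.0 FPKM in WT against 31.3, 3.99 and 0.631 FPKM in cKO libraries, a spread of 49.7-fold within the cKO label. The log2 differences, -1.60 for Smcp (SE 1.02) and -1.56 for Odf1 (SE 0.98), were the largest of the set, and neither passed (limma, adjusted p = 0.814 and 0.811). Gapdhs, the sperm form of a glycolytic enzyme held in the fibrous sheath, had 7.16, 4.11 and 15.3 FPKM in WT and 21.9, 3.66 and 1.64 FPKM in cKO libraries (log2 difference -0.42, limma adjusted p = 0.935). Akap4, the main fibrous sheath protein, was at 2.68, 2.25 and 7.17 FPKM in WT and at 6.90, 1.08 and 0.164 FPKM in cKO libraries.

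Some flagellum genes were high in WT replicate 3 and cKO replicate 1 and much lower in the other 4 libraries. Meig1, which is needed to build the sperm tail and is also transcribed during meiosis, had 1.89, 1.72 and 12.3 FPKM in the WT and 23.1, 1.78 and 1.22 FPKM in the cKO libraries. Only WT replicate 3 and cKO replicate 1 were high, and the other 4 libraries lay close together. Tekt1, a tektin of the microtubule doublets, was likewise high in the same pair, with 0.296, 0.348 and 4.34 FPKM in WT and 5.76, 0.0735 and 0.0614 FPKM in cKO libraries. Odf4 had 2.74 FPKM in WT replicate 3, 6.15 FPKM in cKO replicate 1 and at most 0.778 FPKM elsewhere. The log2 difference of Meig1 was 0.17 with an SE of 0.99 (limma, adjusted p = 0.978), and its sign turned without WT replicate 1 (-0.18), without WT replicate 2 (-0.23) and without cKO replicate 1 (-0.92).

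Odf2 did not share this spread. It encodes a protein of the outer dense fibres that also serves at the centrosome of somatic cells, and it was at 5.54, 5.93 and 10.3 FPKM in WT and at 13.3, 7.85 and 7.81 FPKM in cKO libraries. Its highest value was 2.40-fold its lowest, against 12.1-fold to 49.7-fold for the other 9 genes with a mean of at least 5 FPKM. The difference was 0.37 on the log2 scale (SE 0.31, limma adjusted p = 0.864). Odf2 made up 7.81 FPKM of the summed 34.2 FPKM in cKO replicate 3, but 13.3 of 492.9 FPKM in cKO replicate 1. How much of it came from somatic cells was not tested. Tekt2, another tektin, was similarly flat at 0.466 to 1.35 FPKM, with WT replicate 3 the lowest. Among the remaining flagellum genes Akap3 and Cabyr, both of the fibrous sheath, were at 0.0474 to 0.843 and 0.179 to 1.06 FPKM. Spag6, of the central pair of microtubules, reached 0.435 FPKM in WT replicate 3 and 0.395 FPKM in cKO replicate 1 and was at most 0.0702 FPKM elsewhere. Odf3 and the calcium channel gene Catsper1 stayed at or below 0.115 and 0.234 FPKM.

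**Figure D2:**
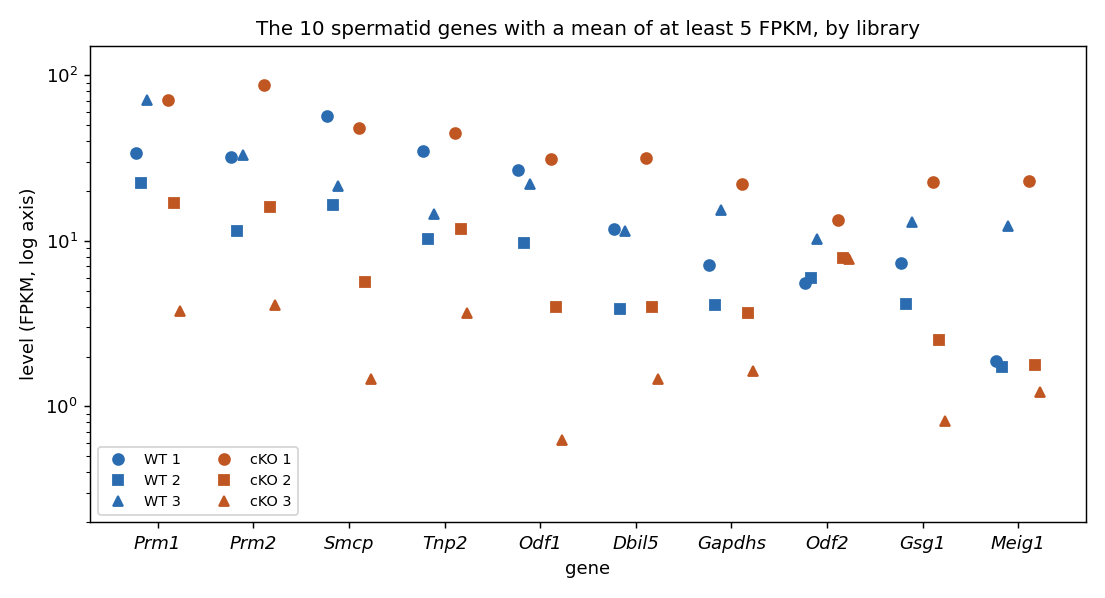
FPKM (log axis) of the 10 spermatid genes with a mean of at least 5 FPKM, by library (blue WT, orange cKO; circle, square and triangle for replicates 1, 2 and 3). Each point is 1 library. The orange circle of cKO 1 and the orange triangle of cKO 3 lie outside the WT points in most genes. In Odf2 all values lie between 5.54 and 13.3 FPKM, in Prm1 WT 3 is as high as cKO 1, and in Smcp WT 1 is the highest.

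Acrosome genes were low in all cultures. The acrosome is the vesicle over the sperm nucleus that opens at fertilization. Acr, its main protease, was listed at 0.340, 0.229 and 1.10 FPKM in WT and at 2.40, 0.152 and 0.0318 FPKM in cKO libraries, from 73 fragments in cKO replicate 1 to 1 in cKO replicate 3. Acrbp, which binds the precursor of that protease, had its highest value, 1.32 FPKM, in cKO replicate 1 as well. Spaca1, a membrane protein of the acrosome, differed in order: it was at 0.902, 0.514 and 2.99 FPKM in WT and at 1.20, 0.896 and 1.81 FPKM in cKO libraries, so cKO replicate 3 was above cKO replicate 1. Spaca3, a lysozyme-like protein, was listed at 1.07 FPKM in WT replicate 1 (19 fragments) and at no more than 0.108 FPKM in the other 5 libraries. It had the smallest p of this group, with a log2 difference of -0.37 (SE 0.25, limma adjusted p = 0.903 over all genes). Acrv1 and the egg-binding protein gene Izumo1 did not exceed 0.112 and 0.0517 FPKM.

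The testis-specific serine kinases divided by level. Tssk6 had 6.15, 1.42 and 5.31 FPKM in WT and 12, 1.52 and 1.19 FPKM in cKO libraries. Its exons overlap those of Ndufa13 and Yjefn3 on the other strand, and without a stated strand setting the fragments cannot be separated. Tssk2 was at 2.92, 1.85 and 2.16 FPKM in WT and at 4.42, 0.300 and 0.143 FPKM in cKO libraries. Tssk1 was low, at 0.303, 0.180 and 0.359 FPKM in WT and at 0.153, 0.0483 and 0.0135 FPKM in cKO libraries, from 1 to 27 fragments. It was the one gene of the 38 whose cKO values all lay below its WT values, which held for 3.15% of all genes, and none lay entirely above, against 4.79% of all genes. The log2 difference of Tssk1 was -0.26 (SE 0.08), with an unadjusted p = 0.02 and an adjusted p = 0.903 over 29275 genes (limma). Tssk1 overlaps Dgcr2 on the other strand. Tssk3 and the chaperone gene Hspa1l were highest in WT replicate 3, at 1.38 and 0.677 FPKM.

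Of the remaining genes, some had their extremes in cKO replicates 1 and 3 and others did not. Dbil5, a testis relative of the acyl-CoA binding protein, had 11.8, 3.88 and 11.4 FPKM in WT and 31.5, 4 and 1.46 FPKM in cKO libraries (log2 difference -0.32, SE 0.90, limma adjusted p = 0.960). Gsg1, a germ cell membrane protein, had 7.30, 4.14 and 13.0 FPKM in WT and 22.6, 2.52 and 0.816 FPKM in cKO libraries (log2 difference -0.66, SE 0.88, limma adjusted p = 0.907). Oaz3, an inhibitor of polyamine synthesis made late in spermatids, was at 3.33, 1.43 and 1.82 FPKM in WT and at 5.83, 0.812 and 0.207 FPKM in cKO libraries, and Spem1 at 4.15, 3.10 and 4.44 FPKM in WT and at 9.47, 2.46 and 0.478 FPKM in cKO libraries. These 4 genes had cKO replicate 1 at the top and cKO replicate 3 at the bottom. Dbil5, Gsg1 and Oaz3, like Gapdhs above, share exonic positions with a gene on the other strand (Gemin4, Fam234b, Mrpl9 and Tdrkh, and Tmem147os), whose fragments cannot be told apart from theirs.

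Crisp2, a cysteine-rich secretory protein of the acrosome and tail, was instead highest in WT replicate 3, with 2.52, 2.18 and 14.2 FPKM in WT and 8.18, 0.803 and 0.565 FPKM in cKO libraries (log2 difference -0.91, SE 0.82, limma adjusted p = 0.878). Tsga8 was at 4.83 FPKM in WT replicate 3 and 6.08 FPKM in cKO replicate 1, and at 0.167 to 0.623 FPKM in the other 4. Spata18, which acts in mitochondrial quality control and is also a p53 target in somatic cells, had its highest value, 8.96 FPKM, in cKO replicate 1 and its lowest, 0.354 FPKM, in cKO replicate 3. The actin bundling protein gene Fscn3 was at 0.589, 0.222 and 1.30 FPKM in WT and at 2.11, 0.400 and 0 FPKM in cKO libraries.

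The test between genotype labels called none of these genes. Of the 38, 20 had at least 1 FPKM in at least 3 libraries and entered the fit of 12284 genes. Of these 20, 0 passed at an adjusted p under 0.05 and 0 had an unadjusted p under 0.05 (limma), while 0.0163% of all tested genes passed. In the fit over all 29275 genes, where 0% passed, 0 of 38 passed and 1, Tssk1, had an unadjusted p under 0.05. The median log2 difference was -0.35 over the 20 and -0.18 over the 38, beside 0.08 and 0.02 over all genes in the same fits. Log values were lower under the cKO label for 27 of 38 genes, beside 41.2% of all genes in that fit. In the fit of tested genes they were lower for 17 of the 20, beside 40.2% of all tested genes. Plain means were lower for only 15 of 38, because cKO replicate 1 weighs more in a plain mean. The share of all genes with a lower plain mean was not counted. The median over the 20 changed with each cKO library left out. It was 0.21 without cKO replicate 3, -0.18 without cKO replicate 2 and -1.29 without cKO replicate 1.

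The median SE of the log2 difference was 0.77 over the 20 genes tested, against 0.27 over all tested genes. For single genes the 95% intervals were wide: -3.98 to 0.77 for Smcp and -2.14 to 2.47 for Meig1.

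**Figure D3:**
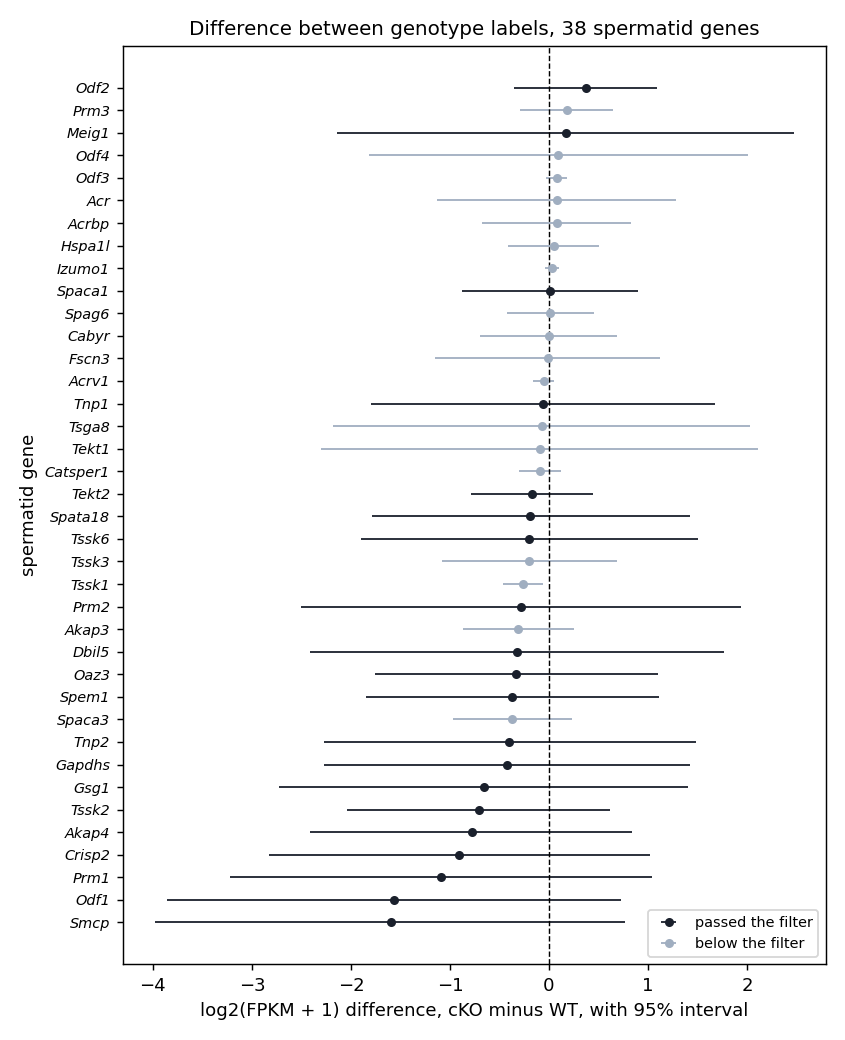
Difference in mean log2(FPKM + 1), cKO minus WT, of the 38 spermatid genes with 95% intervals from limma (black, in the fit of tested genes; grey, below the filter and fitted over all genes). All 20 black intervals include 0, and the median of the black points is -0.35.

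Genes of earlier germ cells showed which libraries held them. A list of 24 spermatocyte genes summed to 13.3, 19.2 and 239.7 FPKM in the WT and 266.9, 14.8 and 22.2 FPKM in the cKO libraries. WT replicate 3 and cKO replicate 1 had 19 and 18 of the 24 at 1 FPKM or more, and each other library had 3. Sycp3, of the synaptonemal complex that joins chromosomes in meiosis, was at 23.7 and 12.3 FPKM in WT replicate 3 and cKO replicate 1 and at 0.253 to 0.892 FPKM elsewhere. Ldhc, the germ cell lactate dehydrogenase, was at 70.2 and 99.3 FPKM there and at 2.49 to 5.06 FPKM elsewhere. In this list 0 of 3 tested genes passed (limma, lowest adjusted p = 0.907).

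WT replicate 1 therefore had spermatid transcripts without much of the spermatocyte ones. The 38 spermatid genes summed to 19.0 times the spermatocyte list in WT replicate 1, 5.79 times in WT replicate 2 and 6.07 times in cKO replicate 2, but to 1.22, 1.85 and 1.54 times in WT replicate 3, cKO replicate 1 and cKO replicate 3. For the nuclear packing genes alone the same ratio ran from 0.518 in WT replicate 3 to 7.79 in WT replicate 1. A few abundant genes weighed heavily in WT replicate 1. Without the 5 most abundant, its spermatid sum was 69.2 of 253.0 FPKM, against 130.7 of 292.4 FPKM in WT replicate 3. The lists differ in genes and number, so the ratios compare libraries and give no cell numbers.

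Set against WT replicate 3, the spermatid genes of WT replicate 1 formed a graded series. Of the 22 with a mean of at least 1 FPKM, 7 were higher in WT replicate 1: Smcp at 266% of its level in WT replicate 3, Tnp2 at 238%, Oaz3 at 183%, Tssk2 at 135%, Odf1 at 121%, Tssk6 at 116% and Dbil5 at 104%. At the other end 4 were under 25%: Crisp2 at 17.7%, Meig1 at 15.3%, Tsga8 at 8.26% and Tekt1 at 6.82%. Prm2 and Prm1 lay between, at 97.4% and 47.8%. Counting error is small beside this range: Smcp rested on 970 and 395 fragments in WT replicates 1 and 3, and Meig1 on 39 and 276. Of the 14 spermatocyte genes with a mean of at least 1 FPKM and a value above 0 in both libraries, 13 were under 25%, with a median of 1.39%. A gene can reach that mean through WT replicate 3 and cKO replicate 1 alone, which favours low percentages. The comparison is between 2 libraries of 1 genotype label and has no replicate check.

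**Figure D4:**
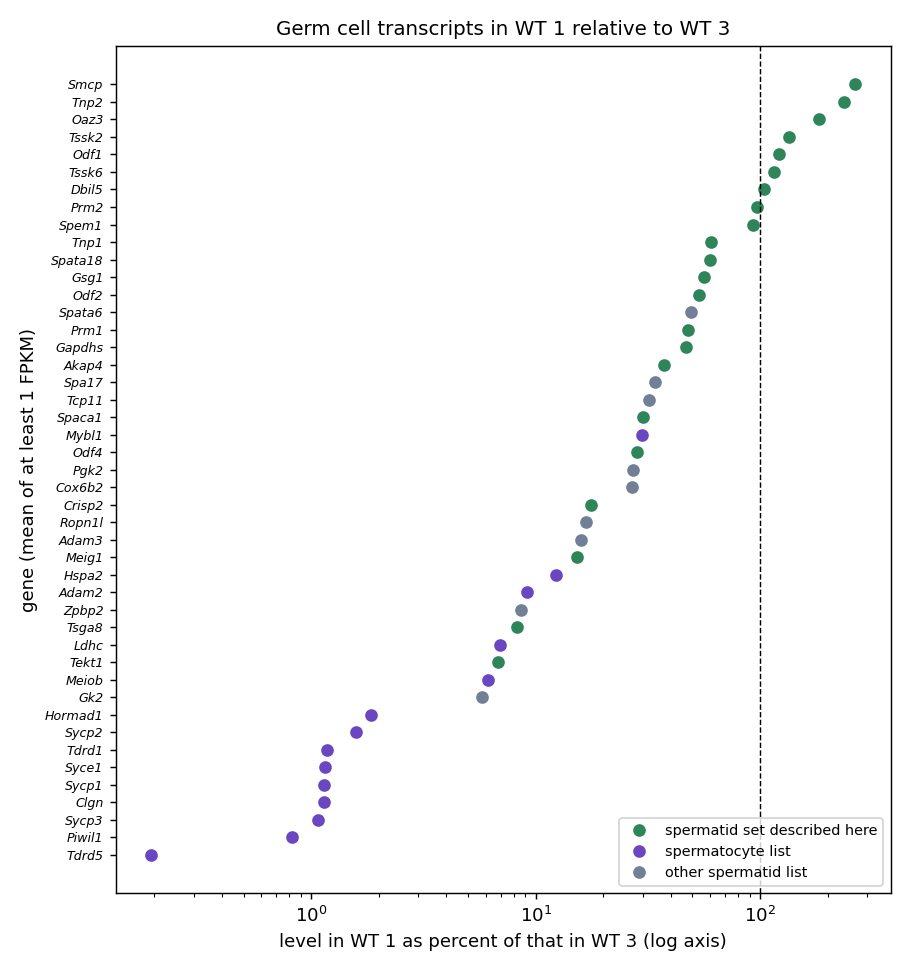
Level of each germ cell gene in WT replicate 1 as a percent of its level in WT replicate 3 (log axis, dashed line at 100%), for genes with a mean of at least 1 FPKM. Green points are the spermatid genes described here, from 6.82% for Tekt1 to 266% for Smcp. Grey points are other spermatid genes and purple points spermatocyte genes, all at 49.5% or less. A gene high in WT replicate 3 and cKO replicate 1 alone can reach that mean.

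By sum, spermatid genes outside the set were also highest in cKO replicate 1 and WT replicate 3, with WT replicate 1 well below both. Of a further 34 listed, 31 had values, summing to 30.0, 22.1 and 101.6 FPKM in WT and to 129.6, 14.45 and 11.8 FPKM in cKO libraries. None of the 9 with a mean of at least 1 FPKM was higher in WT replicate 1 than in WT replicate 3. The median of that percentage was 26.9, against 58.2 for the 22 genes above. A gene can reach that mean through WT replicate 3 and cKO replicate 1 alone, as Gk2 did at 5.42 and 5.65 FPKM. That favours low percentages, so the medians do not compare the whole lists. Below that mean genes lay on both sides, Iqcf1 at 1.30 against 0.600 FPKM and Dpy19l2 at 0.108 against 2.23 FPKM. Among the 6 tested, 0 passed (limma, lowest adjusted p = 0.905), with a median log2 difference of -0.24. Ropn1l, of the sperm tail, was at 38.6 and 37.6 FPKM in WT replicate 3 and cKO replicate 1 and at 1.81 to 6.46 FPKM elsewhere. Tsks, a substrate of the testis-specific kinases, was at 1.18, 0.556 and 0.712 FPKM in WT and at 1.76, 0.185 and 0.0514 FPKM in cKO libraries, as Tssk2 was. Of 13 motile cilium genes with values, the defining factors Foxj1 and Mcidas were at or below 0.433 and 0.124 FPKM in every library. Foxj1 was lowest in WT replicates 1 and 2, at 0.061 and 0.0196 FPKM. The 13 genes summed to 16.69 and 45.15 FPKM in WT replicate 3 and cKO replicate 1, and to at most 7.753 FPKM elsewhere. Rsph1, which spermatids also use, made up 9.58 and 37.6 FPKM of those sums. By mean log2(FPKM + 1) the list was also highest in that pair, at 0.82 and 0.98, against at most 0.48 elsewhere. Whether ciliated cells gave any of this RNA was not tested.

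Markers of other cells had orders of their own, that of the Leydig list being the nearest to the spermatid one by sum. The 20 Sertoli genes summed to 482.3, 414.8 and 1256 FPKM in WT and to 1031, 829.9 and 1114 FPKM in cKO libraries, so cKO replicate 3, the lowest in spermatid RNA, was among the highest. The 14 macrophage genes, from another phagocyte of the testis, summed to 1313, 1067 and 293.9 FPKM in WT and to 319.3, 179.7 and 248.2 FPKM in cKO libraries. The sum was highest in WT replicates 1 and 2, where Lyz2, the lysozyme of myeloid cells, made up 648 and 577 FPKM of it. All of these genes but Cd14 and Ptprc were higher in both than in any other library. Cd14 was at 18.0 and 13.3 FPKM there, against 32.6, 47.1 and 48.4 FPKM in WT replicate 3 and cKO replicates 1 and 2. Ptprc was highest in cKO replicate 2, at 0.638 FPKM. The macrophage sum was the lowest of the 6 in cKO replicate 2. The peritubular myoid list of 7 genes also summed highest in WT replicates 1 and 2, at 3095 and 2425 FPKM, of which Acta2 made up 2850.0 and 2240.0 FPKM. By mean log2(FPKM + 1) that list was highest in cKO replicate 3, at 5.74, beside 5.73 and 5.40 in WT replicates 1 and 2, and the smooth muscle myosin gene Myh11 was also highest there, at 30.0 FPKM. The Leydig list of 8 genes summed to 374.8, 200.4 and 224.9 FPKM in WT and to 243.4, 172.4 and 143.0 FPKM in cKO libraries. As with the spermatid sum, WT replicate 2, cKO replicate 2 and cKO replicate 3 were its lowest libraries, in that order, but WT replicate 1 was its highest. That order held for the plain sum only. By mean log2(FPKM + 1) WT replicate 3, at 2.73, was below WT replicate 2, at 2.91. Single Leydig genes differed too: Star was highest in WT replicate 3, at 94.2 FPKM, and lowest in WT replicate 2, at 22.8 FPKM. The endothelial list of 10 genes spanned 32.2 to 107.1 FPKM with cKO replicate 1 at the top. Spermatogonial genes summed highest in WT replicate 3 and cKO replicate 1, at 263.9 and 243.0 FPKM, and 6 erythroid genes to 0.689 FPKM or less. None of these lists held a gene that passed (limma, lowest adjusted p = 0.438, among macrophage genes). The part of these cells in the spermatid values was not tested.

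**Figure D5:**
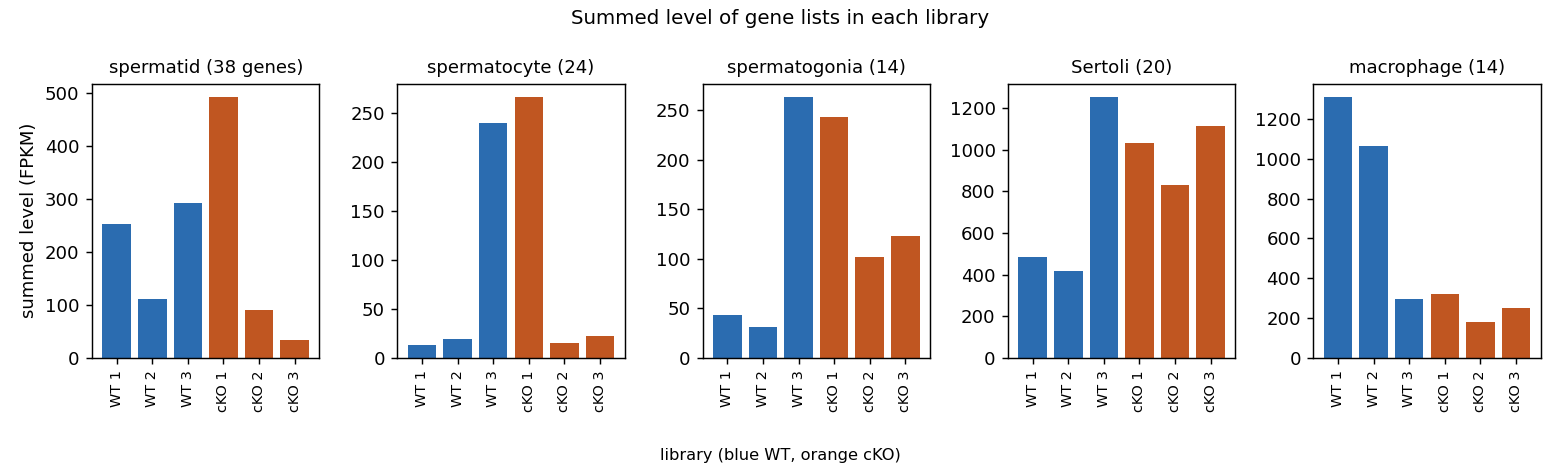
Summed FPKM of 5 gene lists in each library (blue WT, orange cKO; each axis starts at 0 and has its own scale). The spermatid sum is highest in cKO 1 and lowest in cKO 3, the spermatocyte sum is high only in WT 3 and cKO 1, and the macrophage sum is highest in WT 1 and WT 2.

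With WT replicate 3 and cKO replicate 1 both left out, a choice made after seeing the data, WT replicates 1 and 2 both lay above cKO replicates 2 and 3 for 12 of the 20 tested spermatid genes, against 23.2% of all tested genes. The log2 differences were -2.97 for Smcp (SE 0.66, limma adjusted p = 0.0761) and -2.59 for Odf1 (SE 0.63, adjusted p = 0.0891). Tssk2, at -1.45 with an SE of 0.26, was the 1 gene that passed (adjusted p = 0.0493), while 2.37% of all tested genes passed in that fit. Tssk2 rested on 76 and 50 fragments in WT replicates 1 and 2 and on 7 and 4 in cKO replicates 2 and 3. Since the libraries were left out for their germ cell content, this describes the remaining 4 libraries. Those 4 also differed by label in other cells' genes. Macrophage genes summed to 1313 and 1067 FPKM in the WT pair against 179.7 and 248.2 FPKM in the cKO pair. Sertoli genes summed to 482.3 and 414.8 against 829.9 and 1114 FPKM. Genotype and cell makeup cannot be told apart in these 4 libraries.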

How the data were processed

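RNA sequencing of 3 WT and 3 cKO Sertoli cell cultures was used, with groups from the genotype label. The submitters' processing notes name FastQC, HISAT2 2.1.0 and mm8; how genes were counted, with which annotation and strand rule, is not stated there. The authors deposited a single column of FPKM per library; that unit was read from the values. In single-exon genes, FPKM multiplied by exonic length (GENCODE M21, a later build than mm8) gave whole multiples of a constant for 99.0% to 99.4% of values of up to 10 fragments, within 0.02 times the fragment number. That constant gave depth, and the 38 genes came out whole in all libraries. Depth is therefore an estimate. Of 29275 identifiers, 28932 matched a symbol. Without strand, 13 of the 38 genes share exonic positions with a gene on the other strand.

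The fit used log2(FPKM + 1) of genes reaching 1 FPKM in 3 or more libraries, with limma 3.58.1 (R 4.3.3, genotype only, trend, two-sided, Benjamini-Hochberg over all genes fitted, threshold 0.05), so differences of low genes are understated. Genes below the filter were read from a fit over all genes. The script was tested on simulated data. Python 3.11.15 made tables and figures. Full values are given for genes with a mean of at least 5 FPKM, for the gene with the smallest p of each role, and for others named to show an order of libraries, the last chosen after their values were seen. The spermatid genes, roles and lists were chosen with earlier results of these data known. Alternatives changed the filter, the pseudocount (0.1 and 5) or the scaling (median-ratio, quantile), added array weights (whose fit stopped before it converged) or a replicate block, or left out a library.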

Additional observations from a re-analysis of the deposited data

How the results depend on the processing

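No spermatid gene passed in any planned setting, and 1 passed (Tssk2) with both WT replicate 3 and cKO replicate 1 left out, a setting added after seeing the data. The count over all genes, 2 in the reported fit, was 0 without the filter and 0 with the replicate block, 291 with those 2 libraries left out, and 0 to 478 with 1 library left out (478 without WT replicate 3, 4 without WT replicate 1, 0 otherwise). The median log2 difference of the 20 tested genes was -0.94 to -0.10 over the planned settings that kept all libraries, and -1.29 (without cKO replicate 1) to 0.21 (without cKO replicate 3) with 1 library left out. Same-numbered libraries did not deviate together (correlations of 0.14, 0.03 and -0.21 for numbers 1, 2 and 3), so the numbers were not treated as pairs, and with the block 0 spermatid genes passed. Of 14 genes followed singly, 6 changed sign somewhere, all short of the threshold, and the cause was not tested. Meig1 was at -0.39 with array weights, at -0.17 with the 2 libraries left out and at -0.92 to 0.92 with 1 left out. With 1 library left out, Prm2 ranged from -1.37 to 0.69, Tnp2 from -1.25 to 0.39, Gapdhs from -1.33 to 0.23, Gsg1 from -1.74 to 0.11 and Dbil5 from -1.39 to 0.47. The order of libraries by summed spermatid FPKM kept 4 of 6 places with median-ratio scaling, where WT replicates 1 and 3 changed places (283.3 and 258.2), and all 6 with log means or without the 5 most abundant genes. Low genes are limited by depth: several acrosome values rest on 0 to 3 fragments.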
